A study of Gallus gallus with 8 samples.

Results

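Matricellular proteins are secreted molecules that sit in the extracellular matrix and tune how cells attach, migrate and answer growth factors, more than they bear load. The 10 genes described here encode 3 thrombospondins (THBS1, THBS2 and THBS4), 2 tenascins (TNC and TNR), 3 CCN proteins (CCN1, CCN2 and CCN3), the collagen-binding glycoprotein SPARC and fibronectin, FN1. They were taken as all probe sets whose single gene symbol in the platform annotation is one of these names, with CYR61, CTGF and NOV accepted for the 3 CCN genes, which gave 26 probe sets of 38439 tested and 10 genes of 13009. RNA was measured on 8 Affymetrix chicken arrays of growth plate chondrocytes, isolated and pooled from the tibiotarsus, the long bone of the chick's lower leg. There were 4 arrays of hypertrophic chondrocytes from chicks 1 day old and 4 of proliferative chondrocytes from chicks 3 weeks old, with no treatment named for either. Proliferative chondrocytes divide in columns, and hypertrophic chondrocytes have left the cell cycle and swollen before bone replaces the cartilage. Stage and age differ together in each comparison and cannot be told apart, and fewer cells of a type cannot be told apart from less RNA per cell.

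In the growth plate, thrombospondins bind calcium, collagens and cell-surface receptors, and THBS1 is known as an inhibitor of vessel growth and an activator of latent TGF-beta. CCN proteins are modular secreted factors, and CCN2 is required in mice for normal growth plate vascularisation and chondrocyte proliferation. Fibronectin forms fibrils on the cell surface through integrins, and tenascins and thrombospondins bind to those fibrils.

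Where a gene had several probe sets, they are numbered below from the highest mean signal over the 8 arrays down, and the first stands for the gene; the plot of differences gives their identifiers in the same order. Values are log2 signals after RMA, and differences are hypertrophic minus proliferative. A difference passed when its adjusted p in limma was under 0.05, adjusted by Benjamini-Hochberg across all 38439 probe sets. A background level of 4.75 was set from 744 probe sets that lack both a chicken transcript name and a gene in the annotation. Arrays 3 and 4 of each group were nearly alike: over probe sets with a mean of at least 8, the SD of their difference was 0.19 in hypertrophic and 0.18 in proliferative cells, against 0.37 to 0.96 for other pairs within a group. Calls are therefore repeated with the mean of arrays 3 and 4 as a single sample (n = 3 per group). The labels name no separate birds or pools for the arrays of a group, so the p-values reflect nothing but the spread among these samples, which may be technical. All 9 chondrocyte markers had means above background in both groups. By first probe set none was higher and 1 was lower in hypertrophic cells. Differences were negative for 8 of them, with a median of -0.22, and positive for MATN1 alone, at 1.15 ± 0.32 (not passed). The dimmer MATN1 probe set was higher by 1.38 ± 0.35 and passed (adjusted p = 0.0424 in limma), though not with arrays 3 and 4 averaged. Of 9 hypertrophic markers 3 were higher and none lower, and with arrays 3 and 4 averaged 2 were higher. The collagenase MMP13 was higher by 3.81 and lost its call in the averaged fit (adjusted p = 0.124 in limma). The defining collagen COL10A1 did not pass (0.66 ± 0.43, adjusted p = 0.444 in limma) and read 14.14 and 14.07 on proliferative arrays 3 and 4. Of 5 proliferation markers 2 were lower and none higher, with MKI67 at -1.76 ± 0.28, and 1 was lower in the averaged fit, where MKI67 had adjusted p = 0.0577 in limma.

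Of the 10 genes, THBS4 was higher and THBS1 was lower in hypertrophic chondrocytes, and the other 8 did not pass. Among all 13009 genes, 12.9% passed in either direction, 7.34% higher and 5.60% lower. By probe set, 1 of 26 was higher and 3 were lower, against 8.76% of all probe sets called in either direction, 4.49% higher and 4.27% lower. With arrays 3 and 4 averaged, THBS4 and THBS1 were again the genes called, where 3.24% of all genes passed, 2.01% higher and 1.24% lower. In that fit 1 probe set was higher and 2 were lower, against 1.96% of all probe sets called. The groups did not overlap in 6 of the 10 genes, against 20.3% of all genes, and in 11 of the 26 probe sets, against 15.2% of all probe sets. The median difference was 0.09 over the 10 genes, against -0.01 over all genes.

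**Figure D1:**
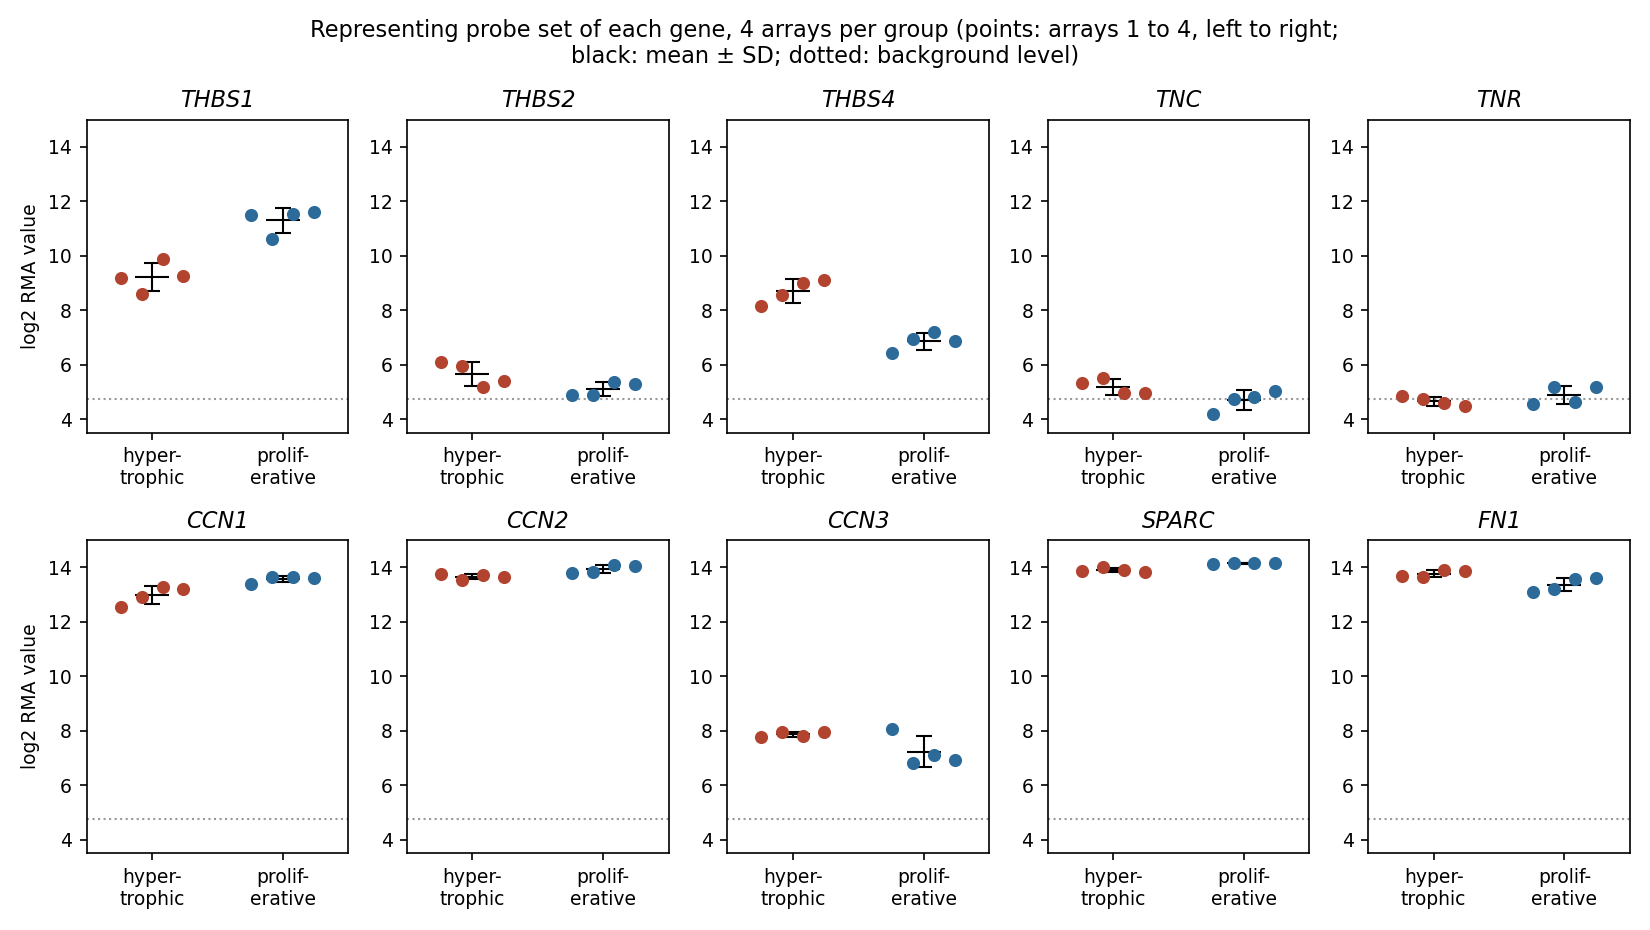
Deposited log2 RMA values (vertical axis) of the probe set with the highest mean for each of the 10 genes, in 4 hypertrophic and 4 proliferative arrays; points are arrays 1 to 4 from left to right, black marks are the mean and SD, and the dotted line is the background level of 4.75. THBS1 is lower and THBS4 higher on all 4 hypertrophic arrays, while TNC and TNR lie near background.

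THBS1, the best known of the thrombospondins for blocking angiogenesis, was about 4-fold lower in hypertrophic cells. Its first probe set read 9.18, 8.59, 9.86 and 9.27 on hypertrophic arrays 1 to 4, against 11.49, 10.62, 11.53 and 11.60 on proliferative arrays 1 to 4. The highest hypertrophic array lay below the lowest proliferative one, and proliferative array 2 was the lowest of its group. The difference was -2.08 ± 0.30 (SE, n = 4 per group; adjusted p = 0.00433 in limma), and the proliferative level was 4.24-fold above the hypertrophic one. The second probe set read 9.21, 8.42, 9.93 and 9.14 in hypertrophic cells, against 11.19, 10.43, 11.50 and 11.87 in proliferative cells. The third read 8.16, 7.20, 8.84 and 7.86 in hypertrophic cells, against 10.12, 9.51, 10.50 and 10.92 in proliferative cells. All 3 ordered the arrays in much the same way, with array 2 the lowest in both groups and array 3 the highest in hypertrophic cells. Their differences were -2.07 ± 0.36 (adjusted p = 0.0106 in limma) for the second and -2.25 ± 0.38 (adjusted p = 0.00890 in limma) for the third.

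With arrays 3 and 4 averaged, the first and the third THBS1 probe sets were called (adjusted p = 0.0345 and 0.0458 in limma), while the second missed it (adjusted p = 0.0555 in limma). The estimate was nearly the same on arrays 1 and 2 (-2.17) and on arrays 3 and 4 (-1.99) for the first probe set. All 3 probe sets passed in each of the 8 fits that leave out 1 array.

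THBS4, a pentameric thrombospondin known from tendon, muscle and cartilage, moved the other way and was 3.61-fold higher in hypertrophic cells. Its single probe set read 8.14, 8.55, 8.997 and 9.13 on hypertrophic arrays 1 to 4, against 6.41, 6.93, 7.19 and 6.87 on proliferative arrays 1 to 4. The groups were separated by a gap wider than the spread in the proliferative group. The difference was 1.85 ± 0.24 (SE, n = 4 per group; adjusted p = 0.00304 in limma; adjusted p = 0.0321 with arrays 3 and 4 averaged). It was 1.67 on arrays 1 and 2 and 2.03 on arrays 3 and 4, and it passed in each of the 8 fits that leave out 1 array. In assembly GRCg7b, THBS4 lies on chromosome Z, of which male birds carry a pair and female birds a single copy. The 605 measured genes on that chromosome had a median difference of -0.05, against -0.01 over all 13009 genes. Of the 605, 43 were higher (against 7.34% of all genes) and 52 were lower (against 5.60%). The part of sex in the THBS4 difference was not tested.

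THBS2, like THBS1 an inhibitor of vessel growth, was close to background and did not pass. The first of its 2 probe sets read 6.09, 5.96, 5.16 and 5.41 in hypertrophic cells, against 4.89, 4.89, 5.37 and 5.30 in proliferative cells. Hypertrophic arrays 1 and 2 stood above all others, and arrays 3 and 4 lay within or close to the proliferative range. The difference was 0.54 ± 0.22 (adjusted p = 0.190 in limma), with a 95% interval from 0.04 to 1.05. The second probe set read 5.93, 5.55, 5.18 and 5.17 in hypertrophic cells, against 4.91, 4.91, 5.04 and 5.14 in proliferative cells. Here too hypertrophic arrays 1 and 2 were the highest, the groups did not overlap, and the difference of 0.46 ± 0.18 did not pass (adjusted p = 0.157 in limma). On arrays 1 and 2 alone the first one differed by 1.13 and passed (adjusted p = 0.0280 in limma), and on arrays 3 and 4 alone it differed by -0.05 (adjusted p = 0.864 in limma). The second differed by 0.83 on arrays 1 and 2 alone and by 0.08 on arrays 3 and 4 alone, and passed in neither fit.

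**Figure D2:**
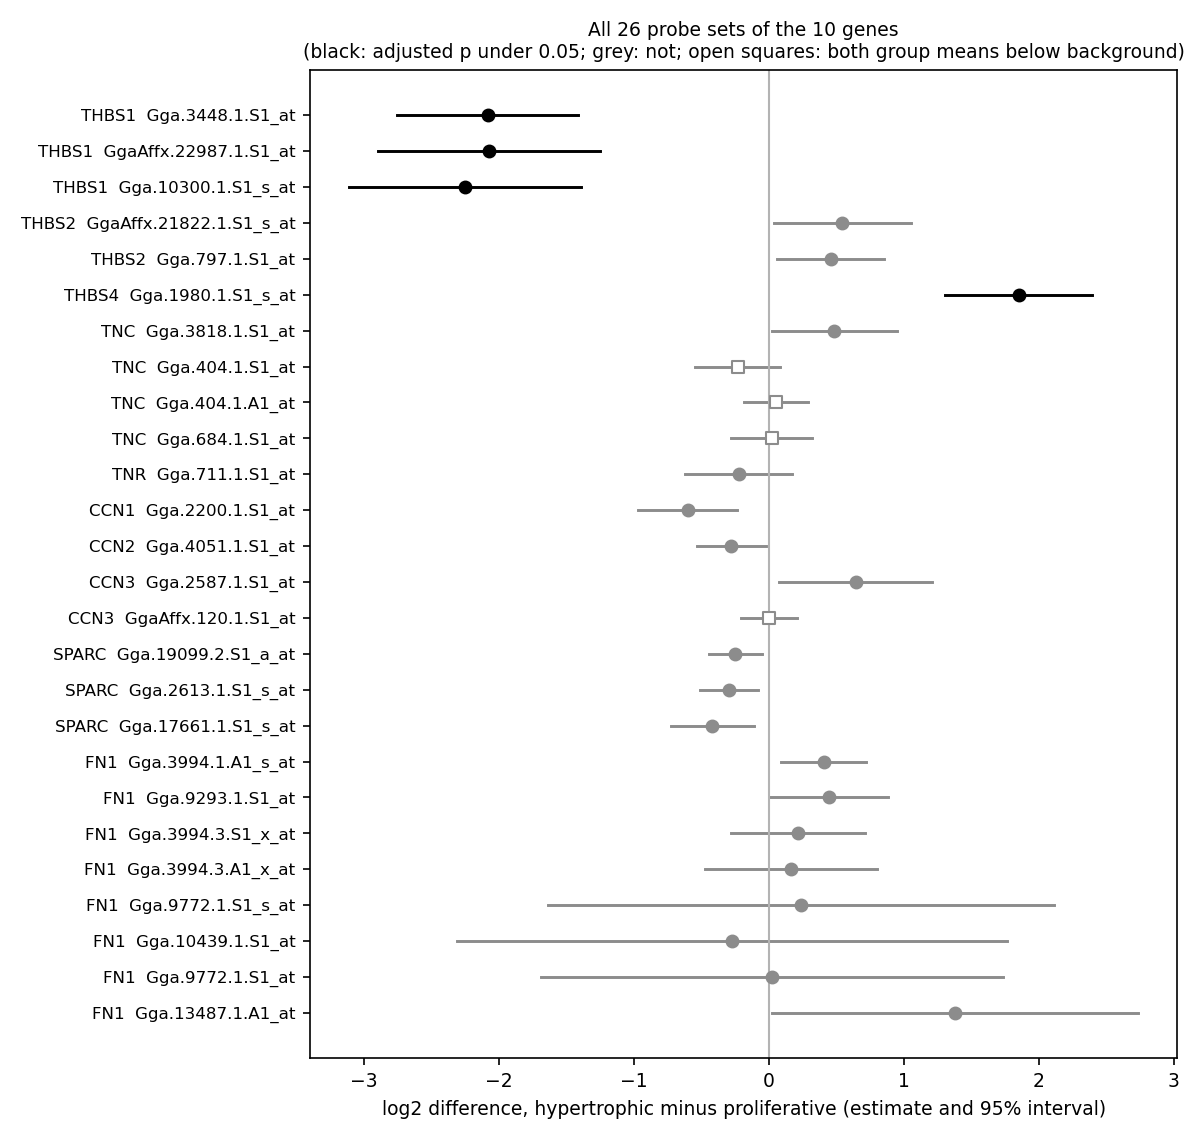
Log2 differences, hypertrophic minus proliferative, with 95% intervals (horizontal axis) for the 26 probe sets; black marks passed the test, grey ones did not, and open squares have both group means below background. The 3 THBS1 probe sets lie between -2.25 and -2.07 and the THBS4 probe set at 1.85, while other intervals lie nearer to 0 or are wide.

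Tenascins were at the edge of detection. TNC, an anti-adhesive glycoprotein of perichondrium, tendon and bone surfaces, read 5.31, 5.51, 4.95 and 4.94 in hypertrophic cells on its first probe set, against 4.18, 4.76, 4.81 and 5.03 in proliferative cells. As in THBS2, hypertrophic arrays 1 and 2 were the highest and the groups overlapped. The proliferative mean of 4.69 lay below background, and the difference of 0.48 ± 0.20 did not pass (adjusted p = 0.202 in limma). The other 3 TNC probe sets were below background in both groups, with means from 3.39 to 3.82. TNR, a tenascin of the nervous system, read 4.85, 4.72, 4.58 and 4.47 in hypertrophic cells, against 4.56, 5.18, 4.61 and 5.17 in proliferative cells. Its difference of -0.22 ± 0.18 did not pass (adjusted p = 0.534 in limma), and its hypertrophic mean of 4.66 was below background.

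Summed levels of 4 marker lists for other cell types were also higher on hypertrophic arrays 1 and 2 than on hypertrophic arrays 3 and 4. Some single markers in them were not. Sums of the remaining lists for other cell types ran the other way. On hypertrophic arrays 1 to 4 endothelial and mural markers summed to 10.44, 10.15, 10.65 and 10.66. Single markers of that list were split. MYH11 (5.03, 7.37, 8.93 and 8.97), PECAM1 and TEK were lowest on hypertrophic array 1 among the hypertrophic arrays. CDH5 (8.29, 7.66, 7.51 and 7.82), TIE1 (7.87, 7.01, 6.38 and 6.30), VWF and EGFL7 were highest on it. Erythroid and thrombocyte markers summed to 13.17, 13.31, 13.48 and 13.41. Muscle markers summed to 6.77, 7.12, 7.42 and 7.56, and neural markers to 7.24, 7.70, 7.75 and 7.87. In the muscle list MYOD1 read 3.53, 3.71, 6.17 and 6.60 on hypertrophic arrays 1 to 4, while DES read 5.44, 5.14, 5.39 and 5.25. The summed level of 5 measured osteoclast markers was 11.20, 10.83, 9.50 and 9.54 on hypertrophic arrays 1 to 4, against 8.89 to 9.30 in proliferative cells (log2 of the sum). That of 6 leukocyte markers was 10.31, 9.23, 8.57 and 8.51 on hypertrophic arrays 1 to 4, against 7.81 to 8.20 in proliferative cells. The brightest marker weighs most in such a sum. On hypertrophic arrays 1 to 4 the osteoclast marker CTSK read 10.96, 10.68, 9.14 and 9.13 and did not pass. The osteoclast marker ATP6V0D2 read 8.25, 7.01, 6.80 and 7.14 there, with array 2 below array 4. The leukocyte marker CD74 read 9.79, 8.63, 7.77 and 7.69 there. The 5 bone cell markers summed to 12.91, 12.85, 11.90 and 11.93 on hypertrophic arrays 1 to 4, against 12.27 to 12.55 in proliferative cells, and the 10 markers of perichondrium, tendon and fibroblasts to 12.78, 12.69, 11.81 and 11.91 on hypertrophic arrays 1 to 4, against 12.61 to 12.88 in proliferative cells. Of these lists 1 of 5 osteoclast markers was higher (ATP6V0D2, by at least 2.49 because its proliferative mean was below background). Of 6 leukocyte markers 1 was higher and 1 lower. LCP1, farthest from 0 by its estimate of 1.84 ± 0.51 (bound 1.30, proliferative mean below background), did not pass. Of bone cell markers none passed by its first probe set (3 with an unadjusted p under 0.05 in limma). PHEX was farthest from 0 by its estimate of 2.71 ± 0.74 (bound 1.85, proliferative mean below background). Dimmer probe sets of LCP1 (0.65 ± 0.13, adjusted p = 0.0178 in limma) and PHEX (0.66 ± 0.17, adjusted p = 0.0444 in limma) passed. Both had means below background in both groups, and neither was called with arrays 3 and 4 averaged. Of fibrous tissue markers MKX was higher by 2.14 ± 0.46 and 1 was lower. Against the order of their lists' sums, PHEX read 4.66, 5.51, 8.30 and 7.92 and MKX read 5.71, 6.57, 7.90 and 7.78 on hypertrophic arrays 1 to 4. The bone cell marker DMP1 also ran against its list's sum there, at 8.29, 8.39, 9.03 and 9.26. The abundant COL1A1 followed the sum of the bone list, with 12.66, 12.62, 11.04 and 11.15 on hypertrophic arrays 1 to 4. The defining leukocyte marker PTPRC, the tendon factor SCX and the osteoclast genes DCSTAMP, OCSTAMP and CALCR were below background in both groups. Their part in the THBS2 and TNC values was not tested.

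**Figure D3:**
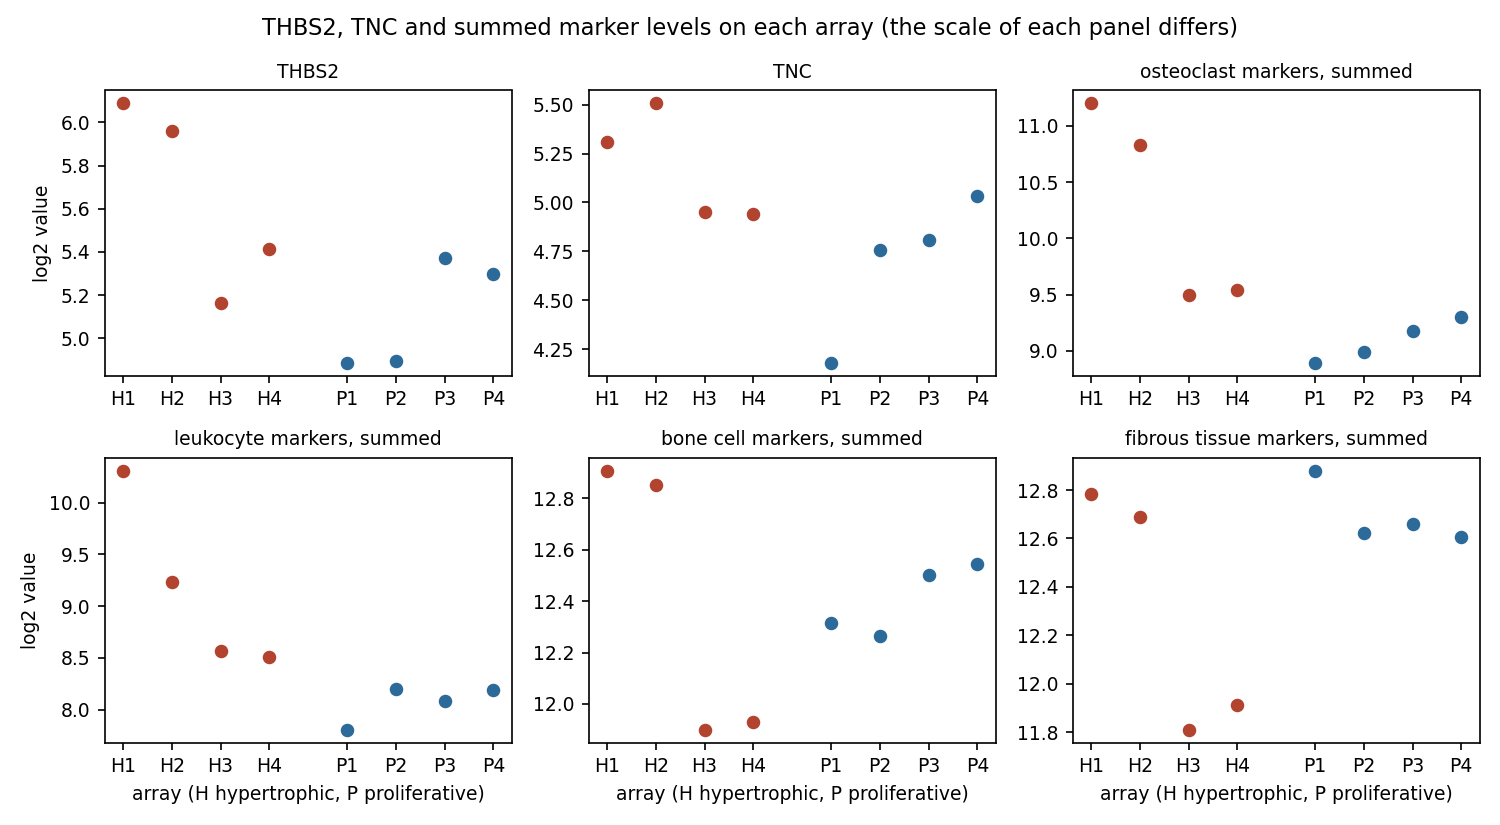
Log2 values of THBS2 and TNC and log2 of summed marker levels (vertical axes, which differ between panels) on each of the 4 hypertrophic (H) and 4 proliferative (P) arrays. Hypertrophic arrays 1 and 2 lie above hypertrophic arrays 3 and 4 in all 6 panels. Lists for other cell types whose sums ran the other way are not shown.

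The signals of CCN1 and CCN2 lay near the top of the deposited range, and neither difference passed. CCN1, an integrin-binding immediate early gene product also called CYR61, read 12.56, 12.90, 13.26 and 13.19 in hypertrophic cells, against 13.40, 13.64, 13.66 and 13.61 in proliferative cells. All hypertrophic arrays lay below all proliferative arrays, with hypertrophic array 1 the lowest. The difference was -0.60 ± 0.16 (adjusted p = 0.0527 in limma; adjusted p = 0.147 with arrays 3 and 4 averaged), with a 95% interval from -0.97 to -0.24. It passed without hypertrophic array 1, where it was -0.46 (adjusted p = 0.0472 in limma), and without hypertrophic array 3, where it was -0.70 (adjusted p = 0.0488 in limma). CCN2, the connective tissue growth factor, read 13.75, 13.54, 13.70 and 13.64 in hypertrophic cells, against 13.77, 13.82, 14.10 and 14.06 in proliferative cells. The groups were separated by a gap that was small beside their spread, and the difference of -0.28 ± 0.11 did not pass (adjusted p = 0.180 in limma).

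CCN1 is an immediate early gene, so other genes of the early and dissociation response were set beside it. Of 8 measured genes of tissue dissociation and early response (among them JUN, EGR1, ATF3 and DUSP1) none passed, and none had an unadjusted p under 0.05 in limma. All 8 had negative differences, with a median of -0.26, and ATF3 had the one farthest from 0, at -0.64 ± 0.58. Their summed level was 15.17, 15.95, 16.36 and 16.33 on hypertrophic arrays 1 to 4, against 16.02 to 16.47 in proliferative cells, lowest on hypertrophic array 1 as for CCN1. Its part in the CCN1 difference was not tested.

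CCN3, also called NOV, is a CCN protein that restrains proliferation in many cells. Its first probe set read 7.75, 7.96, 7.82 and 7.93 in hypertrophic cells, against 8.06, 6.81, 7.11 and 6.91 in proliferative cells. Proliferative array 1 lay above all 4 hypertrophic arrays, and the other proliferative arrays lay below them. The difference of 0.64 ± 0.25 did not pass (adjusted p = 0.164 in limma), and without proliferative array 1 it was 0.92 and passed (adjusted p = 0.00779 in limma). That array also had the lowest summed level of 9 hypertrophic markers, 12.97 against 14.11 to 14.65 on the other proliferative arrays. Its erythroid and thrombocyte sum was likewise the lowest, 10.61 against 12.79 to 13.43, as were its osteoclast, leukocyte and endothelial sums. Its proliferation and fibrous tissue sums were the highest of the group. The part of these in the CCN3 value was not tested. The second CCN3 probe set was below background in both groups, averaging 2.93 on hypertrophic and 2.92 on proliferative arrays.

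SPARC, also called osteonectin, binds collagen and calcium and is abundant in bone and mineralising cartilage. Its first probe set read 13.86, 14.00, 13.88 and 13.84 in hypertrophic cells, against 14.13, 14.14, 14.14 and 14.16 in proliferative cells. The groups did not overlap, and the difference of -0.25 ± 0.09 was small and did not pass (adjusted p = 0.122 in limma). The other 2 probe sets, also without overlap, had differences of -0.29 ± 0.10 and -0.42 ± 0.14 (adjusted p = 0.0969 and 0.0975 in limma). These values too lie close to the top of the range. With arrays centred on 57 ribosomal protein genes, which moves the median of all genes to -0.17, all 3 SPARC probe sets passed at differences from -0.58 to -0.41.

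FN1 was the member with the most probe sets, 8, and they did not behave alike. The first read 13.70, 13.64, 13.89 and 13.86 in hypertrophic cells, against 13.09, 13.22, 13.56 and 13.59 in proliferative cells. The groups did not overlap, by a narrow margin, and the difference of 0.40 ± 0.14 did not pass (adjusted p = 0.118 in limma). The second read 12.85, 12.77, 13.32 and 13.27 in hypertrophic cells, against 12.31, 12.36, 12.95 and 12.83 in proliferative cells. Its groups overlapped, and the difference of 0.44 ± 0.19 did not pass (adjusted p = 0.219 in limma). Within each group both were higher on arrays 3 and 4 than on arrays 1 and 2. With the array pair (1 and 2, or 3 and 4) entered as a blocking term, which counts all 8 arrays as separate samples, both passed (adjusted p = 0.0258 and 0.0146 in limma).

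Another 4 FN1 probe sets differed more between array pairs than between stages. One of them, the sixth by signal, read 6.29, 6.50, 9.86 and 8.86 in hypertrophic cells, against 7.50, 6.64, 8.92 and 9.55 in proliferative cells. The fifth read 6.995, 7.17, 9.84 and 9.16 in hypertrophic cells, against 7.38, 6.41, 8.82 and 9.61 in proliferative cells. The seventh read 6.16, 5.92, 8.80 and 7.86 in hypertrophic cells, against 6.62, 5.80, 7.61 and 8.62 in proliferative cells. In these 3, arrays 3 and 4 exceeded arrays 1 and 2 by 1.91 to 2.96 within each group, and the stage differences of -0.27 for the sixth, 0.24 for the fifth and 0.02 for the seventh did not pass, with SEs from 0.76 to 0.90. The groups overlapped in all 3.

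The eighth and dimmest read 6.05, 6.27, 7.77 and 7.86 in hypertrophic cells, against 4.56, 4.80, 6.72 and 6.35 in proliferative cells. It had the same step between the array pairs, 1.66 in hypertrophic and 1.86 in proliferative cells, and a difference of 1.38 ± 0.60 between the stages (adjusted p = 0.213 in limma). That difference was 1.48 on arrays 1 and 2 and 1.28 on arrays 3 and 4, and it passed with the array pair as that blocking term (adjusted p = 4.96e-04 in limma). The third and the fourth carry the suffix for possible cross-hybridisation and had differences of 0.21 ± 0.22 and 0.17 ± 0.28, which did not pass. Over all 38439 probe sets, 178 (0.463%) were higher by over 1 on arrays 3 and 4 than on arrays 1 and 2 in both groups. The difference between the 3′ and 5′ control probe sets of actin was 0.86 to 1.06 on arrays 3 and 4 of both groups. On arrays 1 and 2 it was 1.35 to 1.90. For EF1A it was 0.18 to 0.24 on arrays 3 and 4, against 0.32 to 0.41 on arrays 1 and 2. For GAPDH the ranges overlapped, -0.49 to -0.435 on arrays 3 and 4 and -0.53 to -0.06 on arrays 1 and 2. The part of these differences in the FN1 values was not tested.

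**Figure D4:**
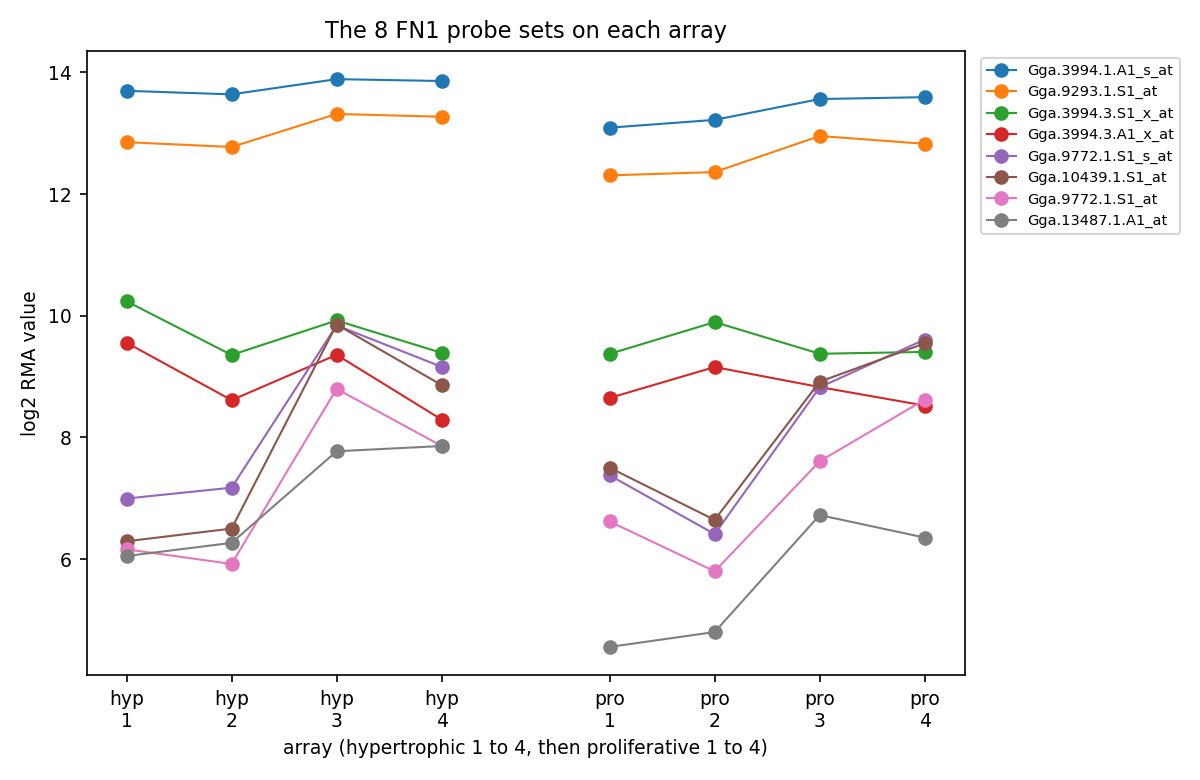
Deposited log2 RMA values (vertical axis) of the 8 FN1 probe sets on hypertrophic arrays 1 to 4 and then proliferative arrays 1 to 4; each colour is a probe set, and lines join arrays of a group only to guide the eye. The 2 brightest probe sets are higher on arrays 3 and 4 of both groups by 0.21 to 0.56, and 4 dimmer ones by 1.66 to 2.96.

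The genes whose 8 values ran closest to those of THBS1 were B3GNT5, a glycosyltransferase, and ZNF385B, a zinc finger protein, with root mean square differences of 0.30 and 0.31 after subtracting each gene's own mean, among 9904 genes compared. Their differences were -1.87 (adjusted p = 8.02e-04 in limma) and -1.82 (adjusted p = 0.00148 in limma). Closest to THBS4 were DBX2, a homeobox gene, at 0.17 and HSBP1L1 at 0.20. The difference of HSBP1L1 was 1.64, and DBX2 had a proliferative mean of 3.39, below background. Genes picked for likeness to a called member share its direction and rough size of difference by that choice. Their differences and p-values are therefore no separate result.

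Other matricellular proteins changed in both directions. Of 17 measured, 5 were higher (against 7.34% of all genes), 2 were lower (against 5.60%) and 10 did not pass, with a median of 0.18 against -0.01 over all genes. CCN4, a CCN protein also called WISP1 and a target of Wnt signalling, was higher by 1.12 ± 0.21 (adjusted p = 0.0148 in limma). Osteopontin, SPP1, a phosphoprotein of mineralised matrix, was higher by 2.77 ± 0.34. FSTL1, a secreted relative of SPARC, was higher by at least 1.54, and SPON1, which carries thrombospondin repeats, by at least 0.20, since their proliferative means lay below background (estimates 1.85 ± 0.38 and 1.498 ± 0.24). SMOC2 and SMOC1, calcium-binding proteins of the SPARC family, moved in opposite directions, SMOC2 higher by at least 0.85 (estimate 1.48 ± 0.25) and SMOC1 with a difference of -1.88 ± 0.32. The tenascin TNN was lower, with a bound of -0.80 because its hypertrophic mean lay below background (estimate -0.92 ± 0.21). CCN4, SMOC2 and TNN were named after their values were seen. COMP, the pentameric thrombospondin of cartilage, averaged 13.82 ± 0.31 over hypertrophic arrays and 14.23 ± 0.029 over proliferative arrays (SD, n = 4 each) and did not pass (-0.41 ± 0.15, adjusted p = 0.142 in limma), and CCN5, CCN6 and TNXB did not pass either. With arrays 3 and 4 averaged, SPP1 was the 1 gene of this list called by its first probe set. Of the dimmer probe sets, 1 of 3 for FSTL1 and 1 of 3 for SMOC1 passed in the same direction, and that SMOC1 probe set (-2.06 ± 0.28) was also lower in the averaged fit. The remaining FSTL1 probe sets, above background in both groups, had differences of -0.32 and -0.17 and did not pass. Without proliferative array 3, 3 genes of the list were higher, and 1 was lower without any of hypertrophic arrays 2 to 4 or proliferative arrays 2 to 4.

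Receptors for these proteins passed about as often as all genes, of which 12.9% passed in either direction. Of 29 measured, 3 were higher (against 7.34% of all genes), 1 was lower (against 5.60%) and 25 did not pass, and 12 of the 29 were below background in both groups, CD36 among them. ITGA1, a collagen-binding integrin chain, was higher by 1.05 ± 0.20, NOTCH1 by 0.80 ± 0.20, and ITGA4, whose means were both below background, by 0.98 ± 0.21. Calreticulin, CALR, a chaperone that also serves as a THBS1 co-receptor at the cell surface, had a difference of -0.98 ± 0.20 (adjusted p = 0.0176 in limma). CD47, a further THBS1 receptor, averaged 9.22 on hypertrophic and 9.24 on proliferative arrays, and ITGB1, an integrin chain of fibronectin receptors, 10.99 on hypertrophic and 10.83 on proliferative arrays. Neither difference passed. Only ITGA4 was called with arrays 3 and 4 averaged. Its other probe sets, also below background in both groups, differed by 0.04 and -0.11 and did not pass. Without proliferative array 3 or 4 none of the receptors passed. The 4 further NOTCH1 probe sets had differences from -0.37 to -0.05.

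Genes of fibronectin assembly and of the adhesions that pull on fibronectin rose more often than they fell. Of 21 measured, 8 were higher (against 7.34% of all genes), none was lower and 13 did not pass, with a median of 0.44. The adhesion adaptor PXN was higher by 1.39 ± 0.34, the collagen VI chain COL6A3 by 1.05 ± 0.16, and TNS1, a tensin of fibrillar adhesions, by 0.96 ± 0.25. FBN1, the microfibril protein fibrillin, was higher by at least 0.60 (estimate 1.42 ± 0.21), and its other 2 probe sets lay below background. TGM2, ILK, TLN1 and FBLN1, the last below background in both groups, made up the 8. The dimmer probe sets of PXN (0.77 ± 0.31) and COL6A3 (-0.12 ± 0.12, both means below background) did not pass. Among the dimmer TNS1 probe sets, that at 1.47 ± 0.38 passed and those at 0.07 and 0.22 did not. With arrays 3 and 4 averaged FBN1 and COL6A3 were called, and 3 to 9 genes rose when 1 array was left out, fewest without hypertrophic array 4 or proliferative array 3 or 4 and most without hypertrophic array 1. With ribosomal protein centring 5 were higher and 1 was lower.

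THBS1, CCN1 and CCN2 are known targets of TGF-beta and of the coactivators YAP and TAZ, so lists of both pathways were set beside them. In the TGF-beta list 2 of 17 were higher (against 7.34% of all genes), 4 were lower (against 5.60%) and 11 did not pass, with a median of -0.11. The ligand TGFB2 was higher by 2.47 ± 0.41 (adjusted p = 0.00847 in limma), with means of 11.01 on hypertrophic and 8.54 on proliferative arrays, and the inhibitor SMAD7 was higher by 1.69 ± 0.42. The repressor SKI had a difference of -1.64 ± 0.31, and LTBP1, which stores latent TGF-beta in the matrix, one of -1.18 ± 0.25 with 5 of its 6 further probe sets also lower. SMAD3 and SERPINE2 were lower as well. None of the 17 was called by its first probe set with arrays 3 and 4 averaged, where TGFB2 had adjusted p = 0.0790 in limma, but 4 of the 6 further LTBP1 probe sets were lower in that fit, 1 of them with both means below background. Without proliferative array 3 none was lower, and 1 was higher without any one array other than hypertrophic arrays 1 and 2. The dimmer SMAD7 probe sets did not pass.

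In the YAP, TEAD and SRF list 3 of 23 were higher (against 7.34% of all genes), 4 were lower (against 5.60%) and 16 did not pass, with a median of 0.16. ANKRD1, a muscle ankyrin repeat protein and YAP target, was lower, by a bound of -1.28 as its hypertrophic mean lay below background (estimate -1.93 ± 0.42, adjusted p = 0.0250 in limma). The YAP-binding scaffold AMOT was higher by 1.28 ± 0.19 and YAP1 itself by 1.05 ± 0.20, and LIMD1, an adaptor that restrains the LATS kinases, had a difference of -1.10 ± 0.18. TEAD4 was higher, and VGLL4 and AMOTL1 were lower. The dimmer YAP1 probe set differed by 0.24 ± 0.40 and did not pass, and of the 4 dimmer AMOT probe sets 2 were higher and 2 did not pass. The dimmer ANKRD1 probe sets, below background in both groups, differed by -0.08 and -0.33 and did not pass. None of the 23 was called with arrays 3 and 4 averaged (adjusted p from 0.0562 for AMOT). From 1 to 6 rose and 1 to 4 fell when 1 array was left out, with 1 higher without proliferative array 4 and 1 lower without proliferative array 3.

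**Figure D5:**
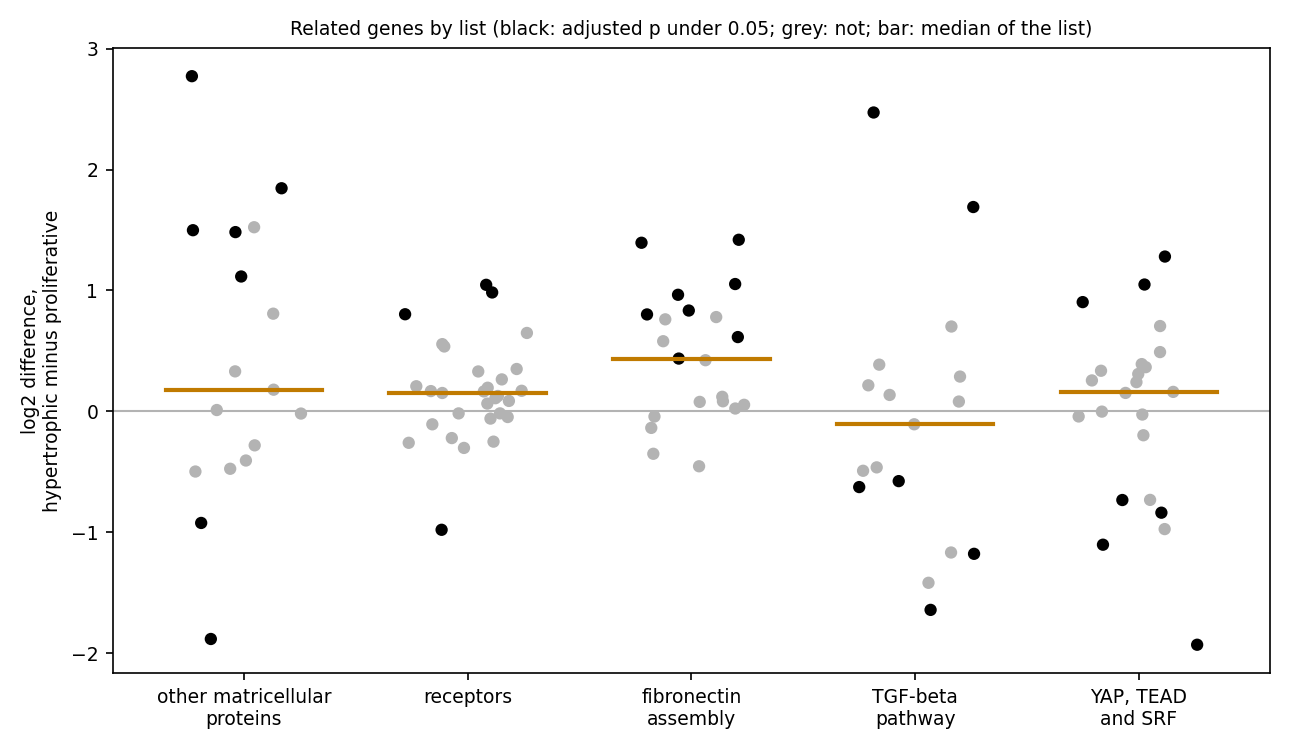
Log2 differences, hypertrophic minus proliferative (vertical axis), of the genes in 5 lists of related genes, 1 point per gene; black points passed the test, grey ones did not, and bars are list medians. In fibronectin assembly 8 genes are higher and none lower, while the other 4 lists hold calls in both directions.

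Endothelial and mural markers were set beside these genes, several of which are known for acting on vessels. Of 11 measured 4 were higher (against 7.34% of all genes), none was lower (against 5.60%) and 7 did not pass, among them PECAM1 and ESAM. All 11 had positive differences, and their summed level was 10.15 to 10.66 in hypertrophic cells against 9.18 to 9.41 in proliferative cells. CDH5, TEK and VWF are named after their values were seen. CDH5 was higher by 3.06 ± 0.33, TEK by 1.33 ± 0.18 and VWF by 1.21 ± 0.26. MYH11, the marker of this list farthest from 0 by estimate (3.25 ± 0.77), was higher by at least 2.82. In the averaged fit 2 were called, CDH5 and TEK, while VWF and MYH11 were not (adjusted p = 0.0914 and 0.177 in limma). ACTA2 and KDR were below background in both groups. The part of these cells in the THBS1 and THBS4 differences was not tested. Of the remaining marker lists, 0 of 3 erythroid and thrombocyte markers (1 with an unadjusted p under 0.05 in limma), 0 of 4 muscle markers (none with an unadjusted p under 0.05) and 1 of 5 neural markers passed. Farthest from 0 were HBAD at 1.28 (not passed), MYOD1 with a bound of 0.25 (estimate 1.19, not passed) and MBP, higher by at least 1.26 (estimate 1.52), both with proliferative means below background. The other 3 muscle markers and 3 of the other 4 neural markers had negative differences.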

How the data were processed

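RNA of 8 samples was measured on Affymetrix arrays. The deposited table holds log2 values made by the authors with RMA, per the submitters' processing notes; the software behind it is not given in the sources used here. RMA quantile-normalises the arrays together, so their medians are nearly equal. Differences among dim and near-saturated probe sets are compressed on such arrays, and near saturation this does not come from RMA. Precision is limited by the number of arrays, which carry no read depth.

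The 96 control probe sets were left out. Symbols came from the platform annotation, updated through the RefSeq table of assembly GRCg7b, which was used for names and chromosome only; 27168 probe sets have 1 symbol, 177 several and 11094 none. Of the probe sets of a gene, the one with the highest mean over the 8 arrays represents it. The test was two-sided and ran over all 38439 probe sets (limma 3.58.1: lmFit, then eBayes; R 4.3.3). The fit was tested on simulated data. Background was the highest, over arrays, of the 95th percentile of 744 probe sets; a difference given as at least, or as a bound, sets each array of the group below background to at least that level and leaves out sampling error.

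The members, the 5 lists of related genes, the 12 marker lists and the tests were chosen with earlier results of these data known. Named genes are all members, up to 4 called genes per related list by size of difference, the 2 genes closest to each called member and the marker farthest from 0 in each list; further called genes of these lists, COMP, CCN5, CCN6, TNXB, CD36, CD47, ITGB1 and single markers were named after their values were seen. Replicate numbers were not used to pair the samples in the main fit. Deviations of same-numbered arrays from their group means had correlations of 0.15, 0.01, 0.22 and -0.01. Such values cannot show that the arrays are unpaired. Alternatives are given in the closing section. No sequences are printed.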

Additional observations from a re-analysis of the deposited data

Results flagged for a closer look

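In 52 groups of 4 arrays (26 probe sets in 2 groups), 2 held an array whose gap to its nearest neighbour took an unusually large share of the group's range, and chance flags about 1 group in 20. Proliferative array 2 was the low one for the first THBS1 probe set, at 10.62, against 11.49 to 11.60 on the other 3, with a gap of 0.887 of the range. The same array was the high one for the third FN1 probe set, at 9.90 against 9.37 to 9.40, with a gap of 0.939 of the range. Without that array the THBS1 difference still passed.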

How the results depend on the processing

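THBS4 was called in all 11 other settings that keep every group (1.67 to 2.03) and the first THBS1 probe set likewise (-2.25 to -1.99); with 1 array left out they ranged 1.70 to 2.04 and -2.31 to -1.87 and passed each time. CCN1 passed in 7 of the 11. Member genes called lower numbered 2 with dim probe sets dropped, with trend and robust variance, with the replicate block, with the array pair as block and with the mean of all probe sets, and 3 with ribosomal protein centring (7 probe sets) and on arrays 3 and 4 alone (6 probe sets). Member genes called higher numbered 2 with the array pair as block and on either pair of arrays alone. Member probe sets called higher numbered 2 with the replicate block and 4 with the array pair as block. They numbered 3 on arrays 1 and 2 alone and 4 on arrays 3 and 4 alone. Shares of all probe sets were not counted for these settings, so the probe set counts have no such share to be read against. Of all genes, 18.3% passed with dim probe sets dropped, 12% with trend and robust variance and 11.9% with the replicate block. Shares for the other settings are given below. The replicate block gave SEs of 0.15 for THBS1 and 0.14 for THBS4, against 0.30 and 0.24 in the main fit, which does not pair arrays. That block further left 1 TGF-beta gene higher, 5 fibronectin assembly genes higher and 1 matricellular gene lower.

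With arrays 3 and 4 averaged, 1 matricellular gene, 1 receptor and 2 fibronectin assembly genes were higher, 0 genes of the YAP and TGF-beta lists were higher, and 0 genes of any of the 5 lists were lower. On arrays 1 and 2 alone, genes called higher numbered 0 for YAP, 0 for TGF-beta and 2 for fibronectin assembly, and genes called lower 0 for matricellular proteins, 0 for receptors, 1 for YAP and 1 for fibronectin assembly. On arrays 3 and 4 alone, 7 receptors, 8 YAP and 5 TGF-beta genes were higher. In that fit 6 matricellular, 2 receptor and 2 fibronectin assembly genes were lower. Of all genes, 35.1% passed on arrays 3 and 4 alone, 4.51% on arrays 1 and 2 alone and 3.24% in the averaged fit. By direction, 2356 of 13009 genes were higher and 2211 lower on arrays 3 and 4 alone. On arrays 1 and 2 alone 309 were higher and 278 lower. The main fit had 12.9%. Fibronectin assembly had 5 higher and 1 lower with ribosomal protein centring, and 1 lower with the array pair as block. With the probe set of highest SD, 2 receptors, 2 YAP and 1 fibronectin assembly gene were lower. With the mean of probe sets, 1 receptor and 1 YAP gene were higher and 2 receptors lower. The share of all genes that passed was 14% with the probe set of highest SD and 13.4% with the mean. It was 16.7% with ribosomal protein centring and 20.1% with the array pair as block. Genes higher and lower numbered 999 and 816 with the probe set of highest SD, and 888 and 856 with the mean. They numbered 798 and 1371 with ribosomal protein centring, and 1418 and 1197 with the array pair as block.

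With 1 array left out, member genes numbered 1 to 2 higher and 1 to 2 lower. Member probe sets numbered 1 to 2 higher and 3 to 4 lower, and the share of all probe sets was not counted in these fits. Matricellular genes numbered 3 to 6 higher and 1 to 3 lower, and receptors 0 to 4 higher and 0 to 1 lower. YAP genes numbered 1 to 6 higher and 1 to 4 lower. TGF-beta genes numbered 1 to 3 higher and 0 to 5 lower, and fibronectin assembly genes 3 to 9 higher and 0 to 1 lower. In these fits 6.19% of all genes passed without proliferative array 3, the lowest share, and 19.2% without hypertrophic array 1, the highest.

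Sign changes occurred in results that did not pass. With ribosomal protein centring the third and the fourth TNC probe sets were at -0.11 and -0.14, the seventh FN1 at -0.14 and the second CCN3 at -0.16. With arrays 3 and 4 averaged the fourth TNC was at -0.0055, the seventh FN1 at -0.041 and the second CCN3 at -0.0046; on arrays 1 and 2 alone they were at -0.054, -0.17 and -0.019. Cyclic loess put the second CCN3 at -0.0034. On arrays 3 and 4 alone the sixth FN1 was at 0.13 and the first THBS2 at -0.047, and the probe set of highest SD put FN1 at -0.27. With 1 array left out, the ranges were -0.025 to 0.038 for the second CCN3, -0.93 to 0.25 for the sixth FN1, -0.035 to 0.39 for the fourth, -0.31 to 0.76 for the fifth and -0.51 to 0.51 for the seventh FN1, and -9e-05 to 0.10 for the third and -0.065 to 0.12 for the fourth TNC. The cause was not tested. TNC and TNR each had a group mean below background, where a difference has only a bound.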
